A study of Rattus norvegicus with 40 samples.

Results

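The insulin-like growth factor (IGF) axis was described here through 10 genes, taken from the 17337 genes of the count tables by their symbols. These were the ligands Igf1 and Igf2, the receptors Igf1r and Igf2r, the growth hormone receptor Ghr, the acid-labile subunit Igfals and the binding proteins Igfbp1, Igfbp2, Igfbp3 and Igfbp4. All 10 were found, and each was measured in 40 RNA-seq libraries of liver from 24 male Fischer 344 rats, an inbred strain, that were 7 weeks old when the study began. DEN (diethylnitrosamine, a liver carcinogen that alkylates DNA), diluted in olive oil, was injected into the peritoneum every week at 50 mg/kg. Rats were sampled after 8 weeks of injections, after 14 weeks of injections, and after 14 weeks of injections and 6 weeks without DEN, which is called 20 weeks. Each of these 3 groups held 4 rats, and 4 untreated rats of the same age (no DEN) were sampled at each time. Non-tumoral (NT) liver was taken from every DEN-treated rat, and 2 tumor nodules were taken from each DEN-treated rat at 14 and 20 weeks. No allele was altered in any group, every rat was male, and whether the untreated rats received olive oil is not given in the sources used here.

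The liver is the main source of circulating IGF1. Growth hormone binds its receptor GHR on hepatocytes, JAK2 and STAT5 are activated, and the genes for IGF1 and the acid-labile subunit are transcribed. In blood, IGF1 or IGF2 joins IGFBP3 and the acid-labile subunit in a complex that keeps the hormone in circulation, while the smaller binding proteins IGFBP1, IGFBP2 and IGFBP4 hold IGF in short-lived pairs and mostly limit its action. IGF1R is the receptor kinase that passes on the signal, and IGF2R removes IGF2 into lysosomes. IGF2 is a fetal liver gene, and it is one of the genes that human liver tumors can switch on again.

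The 250 bases before the annotated transcription start are printed for 5 of the members. These are Igf1, Ghr and Igfals, which were lower after DEN, Igfbp2, which was higher, and Igfbp1. The last was called higher in tumors and, in NT liver, only at 20 weeks. The sequences are those of RefSeq on the assembly GRCr8, which is newer than the build used for counting, and all 10 members had an entry. Each is written 5′ to 3′ towards the start site, and capitals mark matches to the motifs named in the next paragraph.
Igf1 (GRCr8, chr7:24172282-24172531, plus strand): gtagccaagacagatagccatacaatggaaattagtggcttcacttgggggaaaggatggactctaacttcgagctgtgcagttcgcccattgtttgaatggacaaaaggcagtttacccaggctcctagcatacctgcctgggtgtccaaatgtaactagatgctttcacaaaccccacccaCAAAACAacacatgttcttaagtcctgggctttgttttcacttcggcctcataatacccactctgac
Ghr (GRCr8, chr2:54432076-54432325, minus strand): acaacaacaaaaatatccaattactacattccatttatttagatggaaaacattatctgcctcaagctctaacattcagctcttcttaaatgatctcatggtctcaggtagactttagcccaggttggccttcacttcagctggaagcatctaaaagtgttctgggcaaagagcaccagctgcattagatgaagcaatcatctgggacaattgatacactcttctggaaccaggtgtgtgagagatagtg
Igfals (GRCr8, chr10:14403600-14403849, plus strand): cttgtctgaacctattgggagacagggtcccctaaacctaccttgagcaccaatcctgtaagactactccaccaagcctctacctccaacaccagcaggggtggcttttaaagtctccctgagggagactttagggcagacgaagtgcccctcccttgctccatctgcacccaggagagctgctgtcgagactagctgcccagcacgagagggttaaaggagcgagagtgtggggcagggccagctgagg
Igfbp1 (GRCr8, chr14:86261027-86261276, plus strand): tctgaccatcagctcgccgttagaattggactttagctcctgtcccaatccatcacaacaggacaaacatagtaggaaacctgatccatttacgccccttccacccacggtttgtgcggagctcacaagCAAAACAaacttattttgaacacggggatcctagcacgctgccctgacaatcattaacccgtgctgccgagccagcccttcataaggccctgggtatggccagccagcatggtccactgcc
Igfbp2 (GRCr8, chr9:81864561-81864810, plus strand): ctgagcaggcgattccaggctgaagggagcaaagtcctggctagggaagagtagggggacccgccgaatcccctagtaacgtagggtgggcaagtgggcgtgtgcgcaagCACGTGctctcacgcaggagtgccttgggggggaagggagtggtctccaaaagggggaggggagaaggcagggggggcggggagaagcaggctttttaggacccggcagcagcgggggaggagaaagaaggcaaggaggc

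These windows were searched on both strands for 7 motifs: the STAT5 element TTCNNNGAA, found in 7.67% of all 33469 promoter windows of the same length, the C/EBP element TTGCNNAA (9.22%), the HNF4 element CAAAGTCCA (0.338%), the insulin response core CAAAACA (5.46%), the forkhead element TGTTTAC (3.21%), the TATA box TATAAA (12.9%) and the E box CACGTG (5.59%). The insulin response core was present in Igf1, at positions -67 to -61 from the start site, and in Igfbp1, at -121 to -115. The E box was present in Igfbp2, at -140 to -135, and none of the 7 motifs was found in the windows of Ghr and Igfals. None of the matches overlapped another. Among the members not printed, Igf1r held the E box, Igf2r held it at 2 places, Igfbp4 held the TATA box, the first of the 2 Igf2 starts held the C/EBP element, and Igfbp3 and the other Igf2 start held none. A match describes letters only, and binding was not measured.

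Levels are given as CPM, the count of a gene for each 1000000 counted pairs of its library, after scaling by TMM (trimmed mean of M values, which adjusts library sizes for differences in composition). A tumor value of a rat is the level over both of its nodules together. Means are ± SD over 4 rats, and log2 fold changes are ± SE from the quasi-likelihood test of edgeR (2-sided, Benjamini-Hochberg adjusted p over all genes tested). This SE was derived as the size of the log2 fold change divided by the square root of the F of that test, and is approximate. A gene was called higher or lower where the adjusted p was 0.05 or less and the log2 fold change was 0.5 or more in either direction. NT liver and tumors of a time point were compared with the same no DEN rats, so their values are set side by side. Libraries held 20528515 to 160622633 counted pairs (median 30477421), the deepest being an NT library at 20 weeks, so a gene at 1 CPM had 30.5 counts in a library of median depth and a counting error of 18.1%. Levels are not compared between genes, since no gene lengths were used. Albumin took 10.4% to 19% of the counted pairs of every library, as in hepatocyte-rich tissue. In such bulk tissue, fewer cells of a type and less RNA per cell cannot be told apart.

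Igf1, the hormone that growth hormone induces in hepatocytes, fell after DEN in NT liver at all 3 times and in tumors at both. At 8 weeks its level was 657, 710.0, 722 and 801 CPM in the no DEN rats and 472, 518, 519 and 540.2 CPM in NT liver. At 14 weeks the no DEN rats had 637, 661, 675 and 721 CPM and NT liver had 289, 313, 334 and 354 CPM, less than any untreated rat. Tumors of these rats had 213, 227, 246 and 268 CPM. At 20 weeks, 6 weeks after the last injection, the levels were 545, 609.9, 667 and 694 CPM without DEN, 328, 392, 409.8 and 445 CPM in NT liver and 178, 238, 297 and 343 CPM in tumors. In each of these 5 comparisons every DEN value lay below every no DEN value.

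The log2 fold change of Igf1 in NT liver was -0.51 ± 0.09 at 8 weeks (edgeR adjusted p = 0.00174), -1.05 ± 0.09 at 14 weeks (adjusted p = 9.09e-06) and -0.68 ± 0.11 at 20 weeks (adjusted p = 0.00178). In tumors it was -1.53 ± 0.10 at 14 weeks (edgeR adjusted p = 9.65e-06) and -1.30 ± 0.20 at 20 weeks (adjusted p = 0.000638). The change at 8 weeks lay at the edge of the threshold: without the no DEN rat H07 it was -0.44 and without the NT rat F10 -0.46, both under 0.5 in size. The change from 8 to 14 weeks was itself tested, and the fall was larger at 14 weeks, the effects differing by -0.55 ± 0.12 on the log2 scale (edgeR interaction, adjusted p = 0.0114). That difference did not pass in a fit of all 8 groups together (-0.58, adjusted p = 0.0935).

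**Figure D1:**
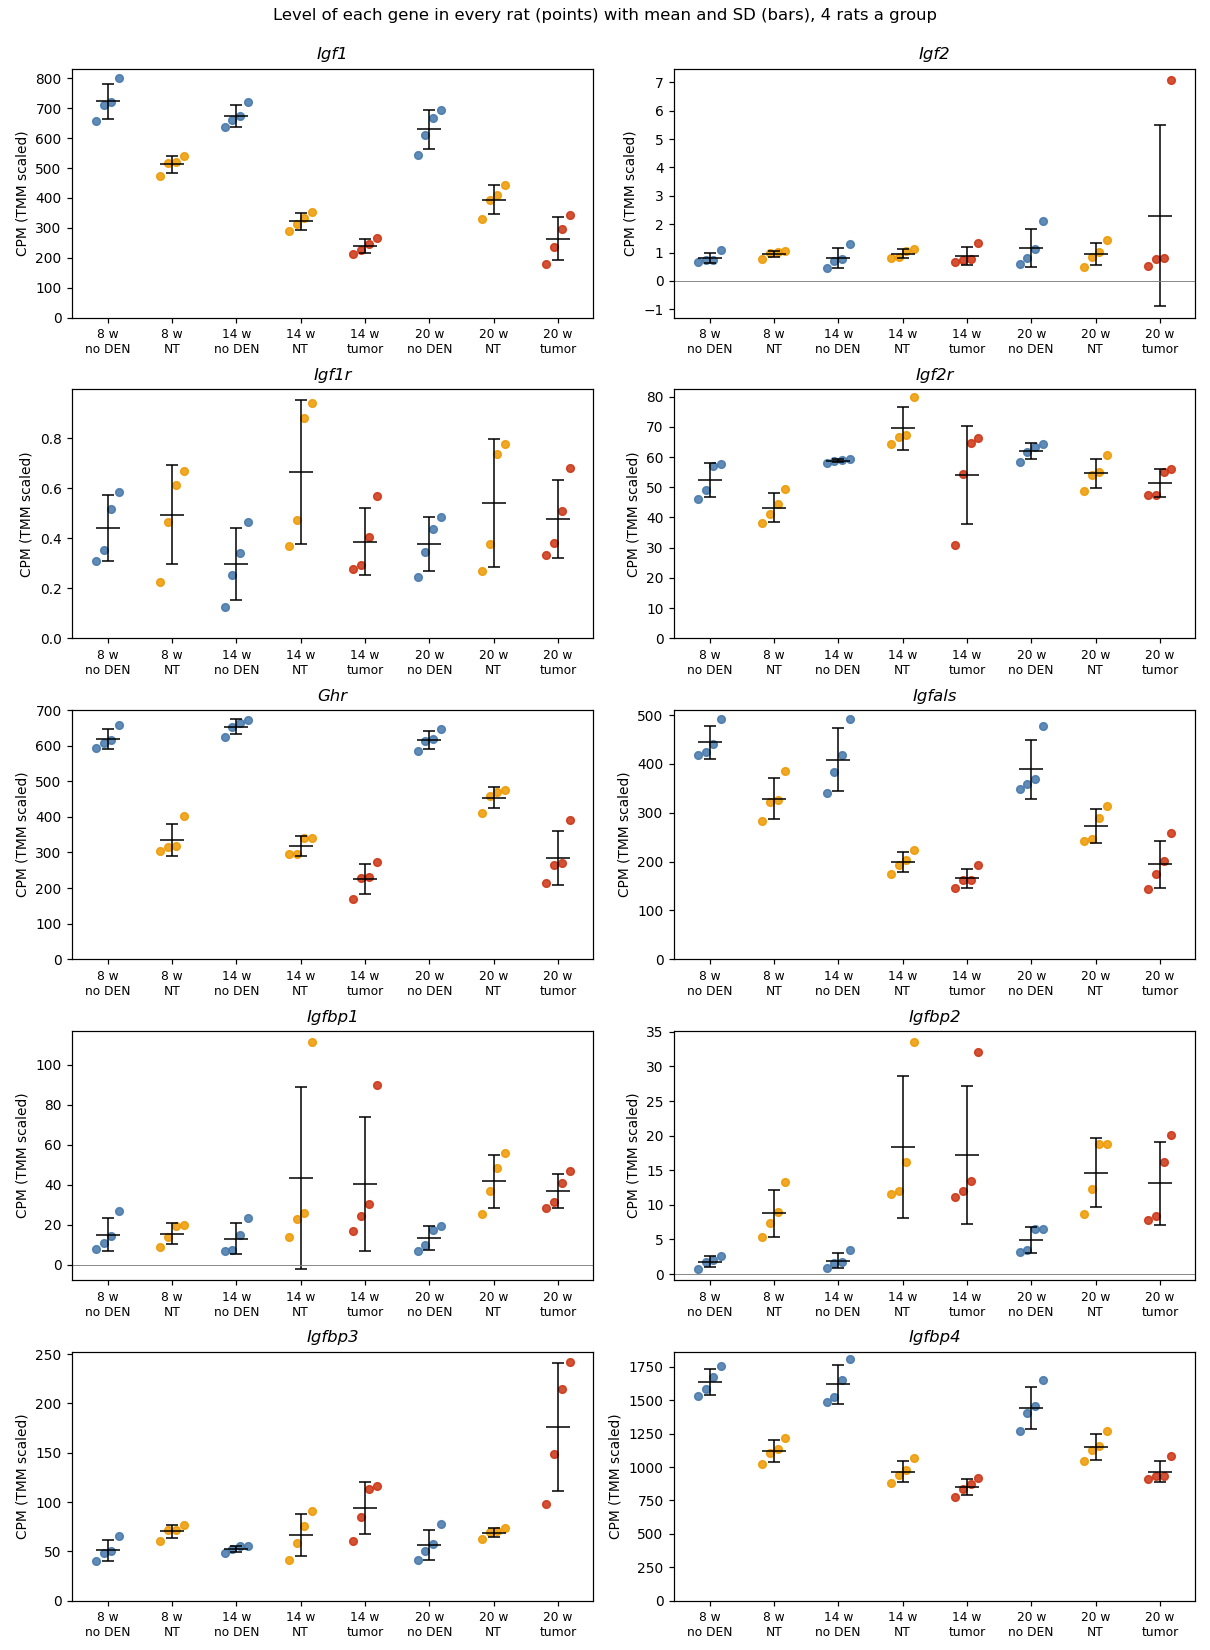
Level of the 10 genes in CPM (TMM scaled, linear axes) in no DEN liver (blue), NT liver (orange) and tumors (red) at 8, 14 and 20 weeks. Points are rats, 4 a group, and bars give the mean and SD. Igf1, Ghr and Igfals sit lower in DEN-treated than in untreated rats at every time, and Igfbp2 sits higher.

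Ghr, the receptor through which growth hormone acts on the liver, was lower in every DEN-treated rat than in any untreated rat of the same time. No DEN livers were close to each other, with 594, 607, 616 and 659 CPM at 8 weeks, 624, 653, 664 and 673 CPM at 14 weeks and 585, 612, 619 and 646 CPM at 20 weeks. NT liver had 303, 314, 318 and 403 CPM at 8 weeks, 294, 295, 341 and 342 CPM at 14 weeks and 409.7, 459.6, 469 and 475 CPM at 20 weeks. The lowest NT value at 20 weeks was thus above the highest NT value at 8 or 14 weeks, while all 4 stayed below the no DEN range. Tumors had 169, 229, 231 and 273 CPM at 14 weeks and 214, 265, 269 and 391 CPM at 20 weeks.

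Ghr fell in NT liver at 8 weeks, with a log2 fold change of -0.90 ± 0.10 (edgeR adjusted p = 0.000159) and at 14 weeks, with -1.03 ± 0.08 (adjusted p = 8.16e-06). At 20 weeks the value was -0.45 ± 0.08 (adjusted p = 0.00328), under the fold required for a call. In tumors it fell at both times, with -1.57 ± 0.13 at 14 weeks (edgeR adjusted p = 3.13e-05) and -1.16 ± 0.18 at 20 weeks (adjusted p = 0.000661). Ghr was the only member whose DEN effect in NT liver was called smaller at 20 than at 14 weeks, by 0.59 ± 0.11 on the log2 scale (edgeR interaction, adjusted p = 0.0189). The adjusted p of that difference was 0.0524 without rat H21, 0.053 without rat H22 and 0.166 in a fit of all 8 groups.

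Igfals encodes the acid-labile subunit, made mainly by the liver, which holds the ternary IGF complex together. Its levels without DEN were 418, 425, 441 and 493 CPM at 8 weeks, 341, 383, 418 and 492 CPM at 14 weeks and 349, 359.8, 369 and 478 CPM at 20 weeks. In NT liver they were 282, 323, 326 and 385 CPM, 174, 194, 203 and 224 CPM and 242, 246, 289 and 314 CPM at the same times, each set wholly below its untreated one. In tumors they were 146, 161, 163 and 193 CPM at 14 weeks and 145, 174, 201 and 258 CPM at 20 weeks. The fall in NT liver passed at 14 weeks (-1.03 ± 0.12, edgeR adjusted p = 5.47e-05) and at 20 weeks (-0.52 ± 0.12, adjusted p = 0.0103). The value at 8 weeks, -0.44 ± 0.10 (adjusted p = 0.00575), was under the required fold. In tumors Igfals fell at both times, with -1.33 ± 0.13 at 14 weeks (edgeR adjusted p = 5.95e-05) and -1.04 ± 0.19 at 20 weeks (adjusted p = 0.00143). The call at 20 weeks in NT liver was lost without the no DEN rat H16 (-0.43), the NT rat H26 (-0.47) or the NT rat H28 (-0.48), each time by falling under 0.5 in size. The DEN effect in NT liver was larger at 14 than at 8 weeks, the effects differing by -0.59 ± 0.16 (edgeR interaction, adjusted p = 0.0298), but 6 of 16 refits with 1 rat left out lost this call, with adjusted p from 0.0528 (without H05) to 0.0689 (without F09). The other 4 were the refits without H07 (0.0605), H08 (0.0542), H10 (0.0647) and H12 (0.0533).

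Igfbp2, which encodes a binding protein abundant in fetal liver, rose in all 5 comparisons, by more than any other member at 8 and 14 weeks. Untreated rats had 0.789, 1.77, 2.03 and 2.63 CPM at 8 weeks, 0.857, 1.64, 1.77 and 3.52 CPM at 14 weeks and 3.21, 3.51, 6.44 and 6.58 CPM at 20 weeks. NT liver had 5.34, 7.45, 9.01 and 13.3 CPM, 11.6, 12.1, 16.2 and 33.5 CPM and 8.70, 12.3, 18.7 and 18.8 CPM, and tumors had 11.2, 12.1, 13.5 and 32.0 CPM at 14 weeks and 7.83, 8.41, 16.1 and 20.1 CPM at 20 weeks. Every DEN value exceeded every no DEN value of its time. At 14 weeks rat F06 stood above the other 3 in both its NT liver and its tumors. The rise in NT liver was 2.28 ± 0.35 on the log2 scale at 8 weeks (edgeR adjusted p = 0.00104), 3.24 ± 0.51 at 14 weeks (adjusted p = 0.00113) and 1.55 ± 0.31 at 20 weeks (adjusted p = 0.00732). In tumors it was 3.12 ± 0.50 at 14 weeks (edgeR adjusted p = 0.000874) and 1.36 ± 0.36 at 20 weeks (adjusted p = 0.00957). With nodule 2 alone in place of both nodules, the 20-week tumor value was 1.02 (adjusted p = 0.1). The smaller fold at 20 weeks coincided with higher untreated levels, and the difference between the 14- and 20-week effects did not pass in NT liver (-1.69 ± 0.63, adjusted p = 0.202) or in tumors (-1.77 ± 0.65, adjusted p = 1).

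Igfbp1 encodes a binding protein that insulin represses and fasting induces within hours, and its level varied widely between rats. At 8 weeks it was 8.12, 11, 14.2 and 26.8 CPM without DEN and 8.75, 13.9, 19.5 and 20.2 CPM in NT liver, and the groups overlapped (0.04 ± 0.37, edgeR adjusted p = 0.948). At 14 weeks the untreated rats had 6.75, 7.59, 14.9 and 23.3 CPM, NT liver had 14.0, 23.1, 25.8 and 111 CPM and tumors had 16.7, 24.5, 30.5 and 89.8 CPM, with rat F06 highest in both. At 20 weeks the levels were 6.75, 9.97, 17.6 and 19.5 CPM, 25.4, 36.9, 48.5 and 56.0 CPM and 28.6, 31.3, 41.0 and 47.1 CPM, and all treated values lay above all untreated ones.

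Igfbp1 rose at 20 weeks in NT liver, by 1.64 ± 0.37 on the log2 scale (edgeR adjusted p = 0.0163), and in tumors, by 1.42 ± 0.30 (adjusted p = 0.00332). Without the no DEN rat H16 the first of these was 1.49 (adjusted p = 0.0539). At 14 weeks the NT value did not pass with TMM (1.73 ± 0.76, adjusted p = 0.0933), while with library totals it did (2.10, edgeR adjusted p = 0.0385, or 1.66 relative to the median of all genes). The tumor value at 14 weeks passed narrowly (1.59 ± 0.59, edgeR adjusted p = 0.049), but without rat F06 it was 0.84 (adjusted p = 0.182), and the call was also lost without H10 (adjusted p = 0.124), H11 (0.0911), H12 (0.119) or H22 (0.0608), and with nodule 2 alone (0.0668). The hours of fasting and of sampling of the rats are not given in the sources used here.

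Igfbp3, the main IGF carrier of blood, rose in tumors at both times, and in NT liver its call depended on the scaling. Untreated livers had 48.3, 52.0, 54.9 and 55.0 CPM at 14 weeks and 41.0, 49.9, 57.0 and 77.8 CPM at 20 weeks. NT liver had 41.6, 58.0, 76.2 and 91.1 CPM at 14 weeks and 62.4, 69.8, 70.6 and 73.4 CPM at 20 weeks, and overlapped with no DEN liver both times. Tumors had 60.8, 84.7, 113 and 116 CPM at 14 weeks and 98.2, 149, 214 and 242 CPM at 20 weeks, all above the untreated rats of the same time. The tumor change was 0.80 ± 0.18 at 14 weeks (edgeR adjusted p = 0.0056) and 1.59 ± 0.27 at 20 weeks (adjusted p = 0.00108). The corresponding NT values were 0.35 ± 0.21 (adjusted p = 0.189) and 0.29 ± 0.16 (adjusted p = 0.204). At 8 weeks, NT liver (60.6, 71.5, 71.9 and 76.9 CPM) against no DEN liver (40.7, 48.0, 50.5 and 65.8 CPM) gave 0.45 ± 0.13 (edgeR adjusted p = 0.023), under the required fold. It passed without the no DEN rat H06 (0.58) or the NT rat H17 (0.50), and at 14 weeks without the NT rat F06 (0.51). With TMM none of the NT values was called, while with library totals all 3 were, at 0.64, 0.80 and 0.51 for 8, 14 and 20 weeks, or 0.45, 0.35 and 0.27 relative to the median of all genes.

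Igfbp4, a binding protein that inhibits IGF action and is made by hepatocytes, ranged from 1531 to 1756 CPM in untreated rats at 8 weeks, 1484 to 1812 CPM at 14 weeks and 1269 to 1650.3 CPM at 20 weeks. NT liver had 1019 to 1218 CPM at 8 weeks, 883 to 1069 CPM at 14 weeks and 1043 to 1273 CPM at 20 weeks, where 1 NT rat reached into the untreated range. Tumors had 776 to 921 CPM at 14 weeks and 908 to 1083 CPM at 20 weeks, below every untreated rat. Igfbp4 fell in NT liver at 8 weeks (-0.56 ± 0.08, edgeR adjusted p = 0.000562) and 14 weeks (-0.73 ± 0.10, adjusted p = 0.00014), with -0.33 ± 0.11 (adjusted p = 0.0421) at 20 weeks. It fell in tumors at 14 weeks (-0.96 ± 0.10, edgeR adjusted p = 6.78e-05) and 20 weeks (-0.63 ± 0.13, adjusted p = 0.00339). These 4 calls depend on the scaling: with library totals in place of TMM the values were -0.36, -0.31, -0.39 and -0.13 in the same order, all under the required fold. Relative to the median of all genes under that scaling they were -0.55, -0.76, -0.96 and -0.64.

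The remaining 3 members, the ligand Igf2 and both IGF receptors, showed no stable change. Igf2, the fetal ligand, was near the counting limit, with group means from 0.808 ± 0.188 CPM (no DEN, 8 weeks) to 1.16 ± 0.668 CPM (no DEN, 20 weeks) in all groups but the 20-week tumors. These had 0.519, 0.774, 0.816 and 7.09 CPM, and the high value was rat H26, whose 2 nodules held 7.67 and 6.58 CPM while its NT liver held 0.858 CPM. The 20-week tumor change of Igf2 did not pass (0.91 ± 0.85, edgeR adjusted p = 0.392), and without H26 it was -0.78. Igf1r, the signalling receptor, which adult hepatocytes carry sparsely, lay between 0.124 and 0.942 CPM over all rats. Its call in NT liver at 14 weeks (1.16 ± 0.42, edgeR adjusted p = 0.0364) rested on overlapping groups, 0.124, 0.255, 0.343 and 0.467 CPM without DEN and 0.368, 0.472, 0.881 and 0.942 CPM with it. These were 3 to 13 counts without DEN and 12 to 34 in NT liver. Igf1r passed the filter on low counts through the NT group, so no conclusion is drawn from this call. The call was lost without H10 (adjusted p = 0.0976), H11 (0.0901), H12 (0.0647), H21 (0.0981) or H23 (0.104).

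Igf2r, which clears IGF2, was measured well, with group means from 43.3 ± 4.89 CPM (NT, 8 weeks) to 69.5 ± 7.10 CPM (NT, 14 weeks). Against no DEN liver it was not called with TMM in any of the 5 comparisons, with log2 values of -0.29 ± 0.11, 0.25 ± 0.07 and -0.19 ± 0.08 in NT liver at 8, 14 and 20 weeks and -0.16 ± 0.20 and -0.32 ± 0.09 in tumors at 14 and 20 weeks. In NT liver at 14 weeks (edgeR adjusted p = 0.0138) and in tumors at 20 weeks (edgeR adjusted p = 0.0134) only the required fold was missed. With library totals the 20-week NT value and both tumor values changed sign (0.03, 0.41 and 0.18), and the 14-week NT value was called higher (0.68, or 0.24 relative to the median of all genes). The DEN effect in NT liver differed between 14 and 8 weeks by 0.54 ± 0.13 (edgeR interaction, adjusted p = 0.0209). This difference fell under 0.5 without F10 (0.47), H06 (0.49), H07 (0.48) or H21 (0.43), and in the fit of all 8 groups its adjusted p was 0.163.

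**Figure D2:**
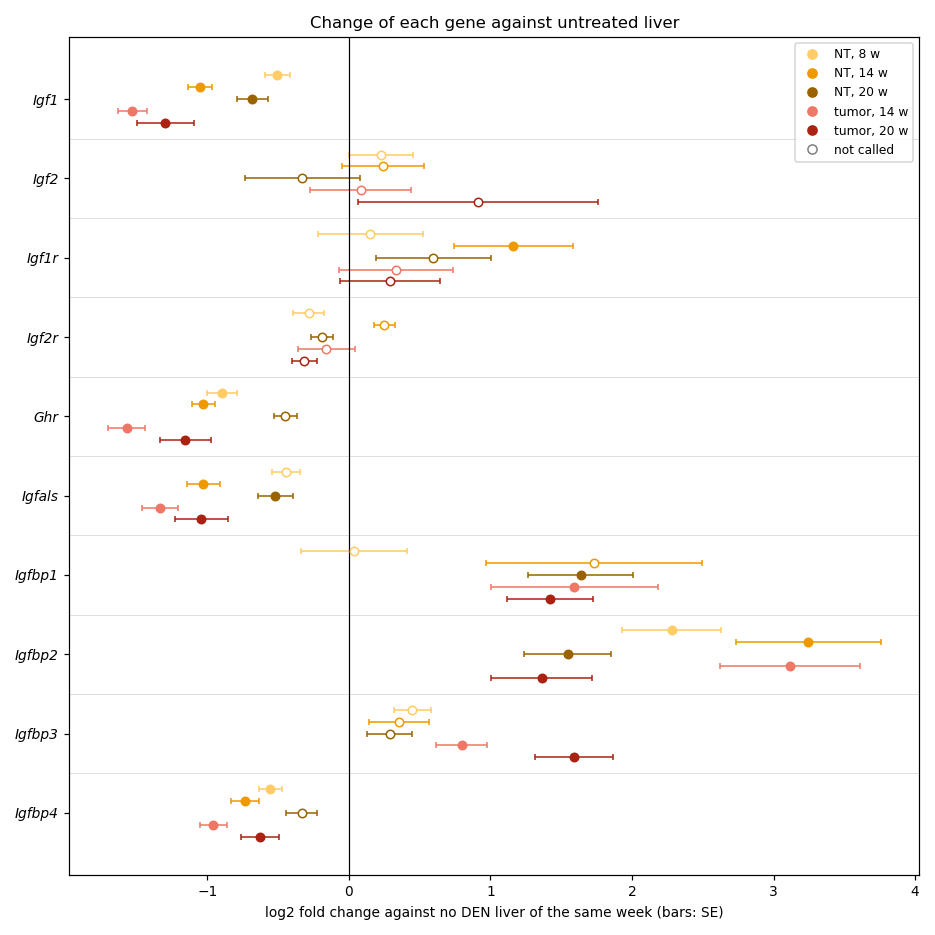
Log2 fold change against no DEN liver of the same week for each of the 10 genes (points, with SE as bars), in NT liver at 8, 14 and 20 weeks and in tumors at 14 and 20 weeks. Filled points passed the test and the fold threshold, and open points did not. Igf1 lies left of 0 in all 5 comparisons, Igfbp2 lies right of 0 in all 5, and Igfbp3, with the TMM scaling used here, is filled in tumors and open in NT liver.

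Counted over the members, 1 of 10 was higher and 3 were lower in NT liver at 8 weeks, where 16.5% of the 10812 genes tested were higher and 5.21% lower. At 14 weeks 2 were higher and 4 lower (all genes: 22.8% and 9.85%), and at 20 weeks 2 were higher and 2 lower (14.3% and 3.82%). Igf1r, whose call rests on few counts, was 1 of the 2 higher at 14 weeks. In tumors 3 were higher and 4 lower at 14 weeks (23.9% and 15.2% of all genes) and again 3 and 4 at 20 weeks (23.6% and 15.2%). The median log2 fold change of the 10 members was -0.12, 0.24 and -0.26 in NT liver at 8, 14 and 20 weeks and -0.04 and -0.01 in tumors at 14 and 20 weeks, beside medians of all genes between -0.01 and 0.02. These counts hold with TMM and shift with the scaling described next. All 10 members passed the filter on low counts in these comparisons.

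Scaling moved all genes together. With library totals in place of TMM the median of all genes was 0.19, 0.44 and 0.24 in NT liver at 8, 14 and 20 weeks and 0.57 and 0.51 in tumors at 14 and 20 weeks. The split of calls over all genes was then 2483 higher and 186 lower at 8 weeks (1781 and 563 with TMM), 4839 and 294 at 14 weeks (2507 and 1085) and 2525 and 164 at 20 weeks (1543 and 414) in NT liver. In tumors it was 5921 and 422 at 14 weeks (2706 and 1719) and 5427 and 477 at 20 weeks (2642 and 1705). Relative to that median, Igf1 was -0.50, -1.07 and -0.70 in NT liver and -1.53 and -1.33 in tumors, close to the values with TMM. Counted over the members, library totals gave 2 higher (Igfbp2 and Igfbp3) and 1 lower (Ghr) in NT liver at 8 weeks, 5 higher (Igf1r, Igf2r, Igfbp1, Igfbp2 and Igfbp3) and 3 lower (Igf1, Igfals and Ghr) at 14 weeks, and 3 higher (Igfbp1, Igfbp2 and Igfbp3) and 0 lower at 20 weeks. In tumors they gave 3 higher (Igfbp1, Igfbp2 and Igfbp3) and 3 lower (Igf1, Igfals and Ghr) at both times. Igf1, Ghr and Igfals kept their sign with library totals in all 5 comparisons, but under that scaling Igf1 at 8 weeks (-0.30) and 20 weeks (-0.46) and Igfals at 20 weeks (-0.30) in NT liver did not reach the required fold.

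Tumors were also compared with the NT liver of the same rats. Without regard to the rat, none of the 10 members and none of the 11466 genes tested at 14 weeks (0%) or the 11546 at 20 weeks (0%) passed, although 1348 and 2767 genes had an unadjusted p under 0.05. With the rat as a block, 4 members passed at 20 weeks, where 1693 genes did, and none at 14 weeks, where no gene did. DESeq2 without the block called 3 members and 902 genes at 20 weeks, and no member and 35 genes at 14 weeks. At 20 weeks Ghr was -0.70 ± 0.18 in tumors relative to NT liver (adjusted p = 0.102), and with the block -0.74 (edgeR adjusted p = 0.00103). Igf1 was -0.61 ± 0.20 (adjusted p = 0.133), with the block -0.64 (adjusted p = 0.00292). Igfals was -0.52 ± 0.18 (adjusted p = 0.144), with the block -0.54 (adjusted p = 0.00151). Igfbp3 was 1.32 ± 0.24 (adjusted p = 0.0949), with the block 1.24 (adjusted p = 0.00653). Without rat H25 and without the block, Igfbp3 was 1.47 (adjusted p = 0.0203) and Ghr -0.89 (adjusted p = 0.0301). At 14 weeks the 2 members with the smallest p were Igf1 (-0.45 ± 0.11, adjusted p = 0.404) and Ghr (-0.51 ± 0.14, adjusted p = 0.404).

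Single nodules of a rat could differ widely. The 2 nodules of a rat had Ghr levels at 20 weeks of 242 and 288 CPM in F03 (NT 475 CPM), 306 and 451 CPM in H25 (NT 459.6 CPM), 276 and 255 CPM in H26 (NT 469 CPM) and 288 and 157 CPM in H28 (NT 409.7 CPM). All 16 nodules of both times had less Ghr than the NT liver of their rat. For Igf1 this held in 8 of 8 nodules at 14 weeks and 7 of 8 at 20 weeks, and for Igfals in 6 of 8 and 8 of 8. Igfbp3 at 20 weeks was 142 and 154 CPM in F03 (NT 73.4 CPM), 149 and 62.2 CPM in H25 (NT 62.4 CPM), 194 and 232 CPM in H26 (NT 70.6 CPM) and 61.8 and 379 CPM in H28 (NT 69.8 CPM). It exceeded NT liver in 6 of 8 nodules at 20 weeks and 7 of 8 at 14 weeks. Nodules of 1 rat differed most for Igfbp3 in H28, by 2.61 on the log2 scale. These are values of single libraries, with no test.

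**Figure D3:**
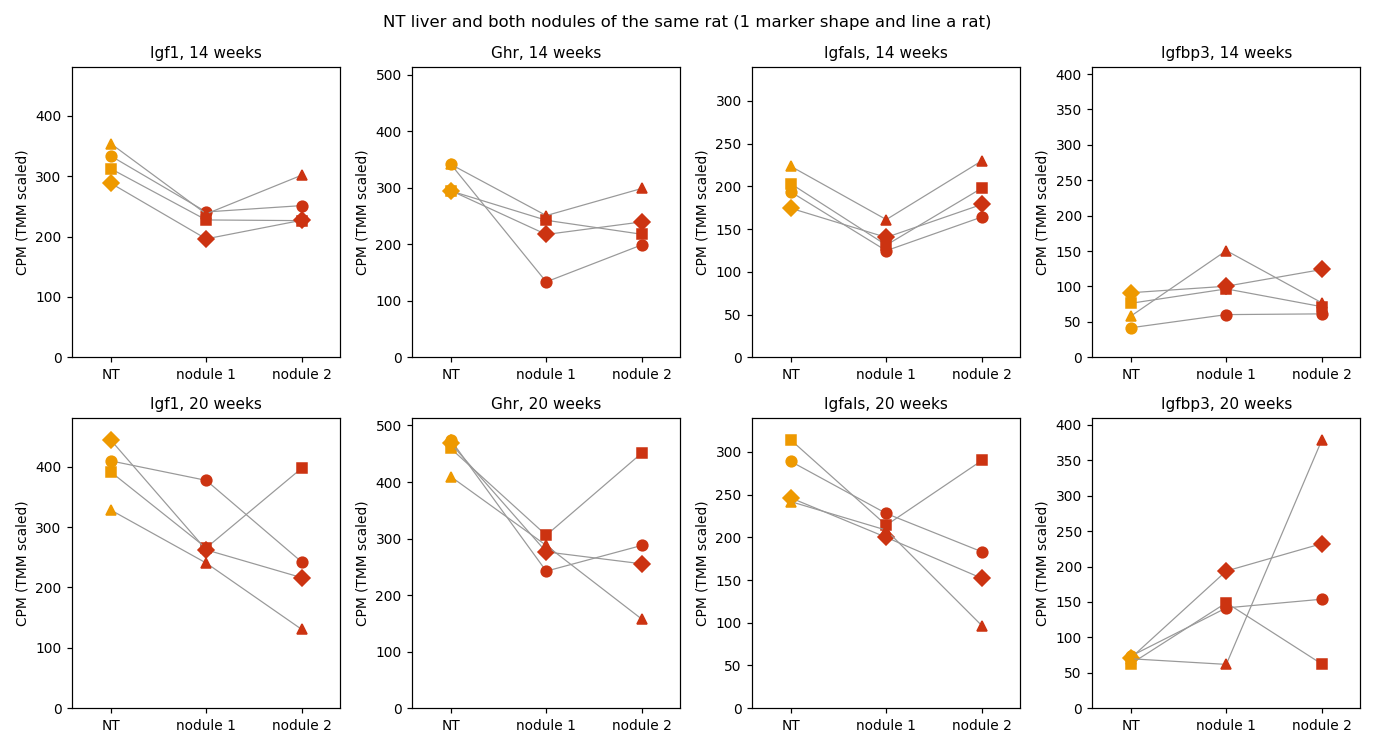
Level in CPM (TMM scaled, linear axes) of Igf1, Ghr, Igfals and Igfbp3 in NT liver (orange) and in nodule 1 and nodule 2 (red) of the same rat, at 14 weeks (top) and 20 weeks (bottom). Lines join the 3 libraries of a rat, 4 rats a panel. All 16 nodules lie below their NT liver for Ghr, and the 8 nodules at 20 weeks spread from 61.8 to 379 CPM for Igfbp3.

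Without DEN no member passed the edgeR test between ages. Igfbp2 and Igf2r were higher in every rat of 20 weeks than in every rat of 8 weeks, and Igf2r also in every rat of 14 weeks. How many of all genes separate in this way was not counted, so no conclusion is drawn from it. Between 8 and 14 weeks none of the 9 members tested (Igf1r did not pass the filter on low counts) and none of 10486 genes (0%) was called, while 1038 genes had an unadjusted p under 0.05 and DESeq2 called 20 genes, none of them a member. Between 8 and 20 weeks none of the 10 members was called, beside 39 of 10418 genes (0.374%). The largest member value was that of Igfbp2, 1.49 ± 0.35 (edgeR adjusted p = 0.102), and DESeq2 gave an adjusted p of 0.00153 for it. Igf2r differed by 0.27 ± 0.08 (edgeR adjusted p = 0.171). Across the DEN-treated groups, the tests of differing effects called 3 of 10 members for NT liver between 8 and 14 weeks (Igf1, Igfals and Igf2r, beside 6.52% of all genes), 1 between 14 and 20 weeks (Ghr, beside 0.703%) and none for tumors between 14 and 20 weeks (0.0862%). A fit of all 8 groups called none of these 4, and with library totals Igf2r alone of the 3 between 8 and 14 weeks passed (0.76), while Ghr between 14 and 20 weeks was 0.38 (adjusted p = 0.0619) and Igf2r passed instead (-0.65).

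Genes that respond to growth hormone in rat liver were read beside Ghr and Igf1. Of 15 genes whose liver level differs between the sexes through the pulse pattern of growth hormone, 3 were higher and 7 lower in NT liver at 8 weeks, 4 and 8 at 14 weeks and 2 and 6 at 20 weeks, with 4 and 10 in tumors at 14 weeks and 3 and 11 at 20 weeks. The shares of all genes were 16.5% higher and 5.21% lower, 22.8% and 9.85%, and 14.3% and 3.82% in NT liver at these times, and 23.9% and 15.2%, then 23.6% and 15.2% in tumors. Their median log2 fold change was -0.45, -0.80 and -0.47 in NT liver and -1.20 and -1.31 in tumors, beside the medians of all genes near 0 given above. Obp3, a male-biased urinary lipocalin with close relatives in the genome, fell from 339 ± 83.5 CPM without DEN to 10.2 ± 5.99 CPM in NT liver at 14 weeks (-5.04 ± 0.46, edgeR adjusted p = 9.45e-05). Cyp2c11, the male-specific testosterone hydroxylase of rat liver, fell from 4252 ± 922 CPM to 627 ± 264 CPM at that time (-2.75 ± 0.33, adjusted p = 0.000199) and also fell at 8 weeks (-1.30 ± 0.15, adjusted p = 0.000175). Cyp2c12, the female-specific steroid sulfate hydroxylase, rose from 11.9 ± 3.98 CPM to 84.3 ± 30.5 CPM in NT liver at 20 weeks (2.82 ± 0.32, edgeR adjusted p = 0.00108) and to 154 ± 58.6 CPM in tumors (3.63 ± 0.31, adjusted p = 3.66e-05). The genes did not divide by sex bias alone, since female-biased Cyp2c7 fell in all 5 comparisons, with -2.21 ± 0.16 in NT liver at 14 weeks (edgeR adjusted p = 4.93e-06). Pairs that aligned to several places had been dropped, so members of the Cyp2c and lipocalin families may be undercounted. The loss of Obp3 was, like that of Ghr, smaller at 20 than at 14 weeks in NT liver, by 3.33 ± 0.58 (edgeR interaction, adjusted p = 0.0189), a call that 3 of 16 refits with 1 rat left out lost.

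**Figure D4:**
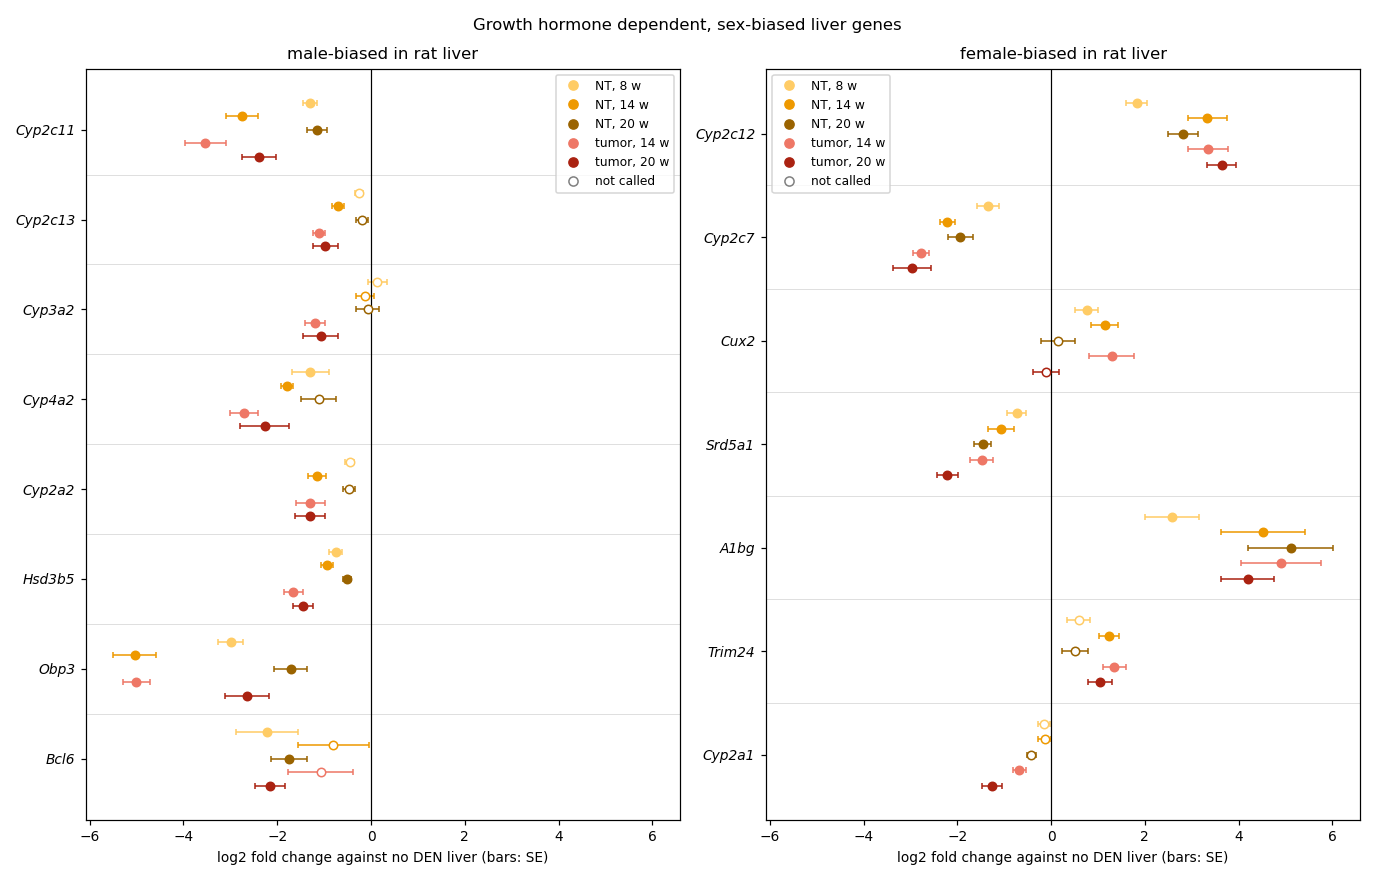
Log2 fold change against no DEN liver of the same week (points, with SE as bars) for 8 male-biased and 7 female-biased liver genes that depend on growth hormone, in NT liver and tumors. Filled points passed the test and the fold threshold. Cyp2c11 and Obp3 lie left of 0 in all 5 comparisons, Cyp2c12 and A1bg lie right of 0 in all 5, and Cyp2c7 and Srd5a1, though female-biased, lie left of 0.

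Of 17 genes of growth hormone signalling, 1 was higher and 1 lower in NT liver at 8 weeks and 1 and 2 at both 14 and 20 weeks, with 1 and 5 in tumors at 14 weeks and 1 and 4 at 20 weeks. Of all genes, 16.5%, 22.8% and 14.3% were higher and 5.21%, 9.85% and 3.82% lower in NT liver at 8, 14 and 20 weeks, and 23.9% and 23.6% were higher and 15.2% lower in tumors at 14 and 20 weeks. The higher one was each time Socs1, an inhibitor of JAK kinases (1.22 ± 0.30 in NT liver at 14 weeks, edgeR adjusted p = 0.00514). Hnf4a, a nuclear receptor of hepatocyte identity, was lower in all 5 comparisons, from -0.51 ± 0.12 in NT liver at 8 weeks (adjusted p = 0.0097) to -1.14 ± 0.13 in tumors at 20 weeks (adjusted p = 0.000116). At 8 weeks the call of Hnf4a was lost in 4 and that of Socs1 in 5 of 8 refits with 1 rat left out, at 14 weeks that of Hnf4a in 3, and at 20 weeks that of Socs1 in 1. Stat5b, the transcription factor that growth hormone activates in liver, fell in tumors at 14 weeks (-0.93 ± 0.14, edgeR adjusted p = 0.000734) and 20 weeks (-0.84 ± 0.14, adjusted p = 0.00111) and was not called in NT liver. Jak2 and the feedback inhibitors Socs2, Socs3 and Cish were not called in any of the 5, with log2 values of Socs2 from 0.12 to 1.96.

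Other genes of the IGF system were counted in the same way. Of the 20 on the list 18 were in the tables and 9 to 12 passed the filter on low counts in a comparison. In NT liver 3, 4 and 3 were higher at 8, 14 and 20 weeks and none was lower, and in tumors 4 were higher and 4 lower at 14 weeks and 5 and 3 at 20 weeks. Of the genes tested, 10, 11 and 9 in NT liver and 11 and 12 in tumors, these counts stand beside shares of all genes of 16.5%, 22.8% and 14.3% higher in NT liver and 23.9% and 23.6% higher and 15.2% lower in tumors. Igfbp7, a relative of the binding proteins secreted by vessel and stromal cells, rose in NT liver from 46.5 ± 3.65 CPM to 108 ± 15.8 CPM at 8 weeks (1.21 ± 0.10, edgeR adjusted p = 2.35e-05). H19, the imprinted RNA next to Igf2, rose from 2.08 ± 0.904 CPM without DEN to 24.8 ± 13.4 CPM in NT liver (3.60 ± 0.51, adjusted p = 0.000704) and 32.0 ± 9.13 CPM in tumors at 14 weeks (3.91 ± 0.35, adjusted p = 4.46e-05), while Igf2 was not called there. Igfbp5, a further IGF binding protein, was near the counting limit, with 0.188 ± 0.105 CPM without DEN and 1.19 ± 0.457 CPM in NT liver at 14 weeks (2.68 ± 0.42, edgeR adjusted p = 0.000354). Its counts without DEN were so few that it passed the filter only through the groups where it was high. Its tests are therefore printed as a description and no conclusion is drawn from them. At 20 weeks Igfbp5 had 0.0687 ± 0.0565 CPM without DEN and 1.41 ± 0.649 CPM in tumors (4.18 ± 0.59, edgeR adjusted p = 0.000431). It was tested there only through the tumor group, so the size of that change is not exact. In NT liver at 8 and 20 weeks it did not pass the filter on low counts. In tumors at 14 weeks it had 1.29 ± 0.768 CPM (2.75 ± 0.64, edgeR adjusted p = 0.00623), overlapping the rats without DEN. Its NT effects at 14 and 8 weeks differed by 2.74 ± 0.65 (edgeR interaction, adjusted p = 0.0179), a call lost without rat H08 (adjusted p = 0.0513) and in the fit of all 8 groups (0.073). That test too included Igfbp5 only through NT liver at 14 weeks, and its 8-week effect rests on very few counts. Grb10, an adaptor that dampens insulin and IGF1 receptors, was called higher in NT liver at 8, 14 and 20 weeks. It also rose in tumors at 14 weeks, by 1.30 ± 0.26 (edgeR adjusted p = 0.00305). Insr, the insulin receptor, and Irs1, its substrate, fell in tumors at both times, with -0.85 ± 0.19 and -0.72 ± 0.18 at 20 weeks (adjusted p = 0.00442 and 0.00781).

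Of 12 genes of insulin action, the group to which Igfbp1 belongs, 2 were lower and none was higher in NT liver at 8 weeks, 2 were higher and 2 lower at 14 weeks and 2 were lower and none higher at 20 weeks. In tumors 6 were lower and none higher at 14 weeks, and 6 were lower and 1 higher at 20 weeks, beside 23.9% and 23.6% of all genes higher and 15.2% lower. The shares of all genes in NT liver were 16.5% higher and 5.21% lower at 8 weeks, 22.8% and 9.85% at 14 weeks and 14.3% and 3.82% at 20 weeks. Srebf1, the lipogenic factor that insulin induces, was -1.39 ± 0.22 in tumors at 20 weeks (edgeR adjusted p = 0.000728). Pck1, which insulin represses as it does Igfbp1, was also lower (-1.38 ± 0.30, adjusted p = 0.00342). Of 10 oncofetal genes, those of fetal liver, 7 were in the tables and 4 passed the filter. Gpc3, a cell-surface proteoglycan used as a liver cancer marker, rose in all 5 comparisons, in tumors at 14 weeks by 3.78 ± 0.39 (edgeR adjusted p = 8.41e-05). H19 rose with it, and Peg3 was called lower at 14 weeks in NT liver and in tumors at both times. With 1 rat left out, the Peg3 call was lost in 2 of 8 refits in NT liver, in 7 of 8 in tumors at 14 weeks and in 2 of 8 in tumors at 20 weeks. Afp was called in none of the 5, but its NT effect was lower at 14 than at 8 weeks by the test of the difference (-0.61 ± 0.11, edgeR interaction, adjusted p = 0.007), a call kept with any 1 rat left out, and lost with library totals (-0.39) and in the fit of all 8 groups (adjusted p = 0.0755).

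Markers of liver cell types moved between the same groups. The 6 hepatocyte markers summed to 279250 to 316710 CPM in untreated rats at 14 weeks, 190160 to 236190 CPM in NT liver and 167950 to 201230 CPM in tumors, and 4 of 6 were called lower in each, Apoa1 being higher. At 8 weeks their sum was 306110 to 314180 CPM without DEN and 235330 to 301470 CPM in NT liver, with no overlap. At 20 weeks it was 287660 to 328240 CPM without DEN, 229020 to 303240 CPM in NT liver and 164710 to 232410 CPM in tumors. None of the 6 was called lower in NT liver at 8 or 20 weeks, and 3 were in tumors at 20 weeks. Of all genes, 5.21%, 9.85% and 3.82% were lower in NT liver at 8, 14 and 20 weeks and 15.2% in tumors each time. The 4 bile duct markers tested summed to 90.1 to 125 CPM without DEN and 176 to 230.3 CPM in NT liver at 14 weeks, with all 4 called higher. At 8 weeks the bile duct sums were 101 to 119 CPM without DEN and 131 to 173 CPM in NT liver, with 2 of 4 called higher. At 20 weeks they were 102 to 151 CPM and 129 to 178 CPM, which overlap, with 3 of 4 called higher, and in tumors 4 of 4 were called at 14 weeks and 3 of 4 at 20 weeks. The 8 stellate cell and myofibroblast markers summed to 235 to 288 CPM without DEN and 392 to 509 CPM in NT liver at 8 weeks. At 14 weeks they summed to 238 to 295 CPM without DEN, 414 to 518 CPM in NT liver and 459.6 to 519.9 CPM in tumors, and at 20 weeks to 201 to 258 CPM, 265 to 295 CPM and 305 to 365 CPM. The groups with and without DEN did not overlap at any time, with 5, 5 and 3 of the 7 tested called higher in NT liver at 8, 14 and 20 weeks, 1 (Pdgfrb) called lower at 14 weeks, and 4 of 7 called higher in tumors at each time. Of all genes, 16.5%, 22.8% and 14.3% were called higher in NT liver at these times, and 23.9% and 23.6% in tumors. The eighth, Col1a2, had 0 CPM in every library. The 6 endothelial markers summed to 96.8 to 157 CPM without DEN and 195 to 204 CPM in NT liver at 8 weeks, to 90.6 to 142 CPM, 191 to 236 CPM and, in tumors, 188 to 229.6 CPM at 14 weeks, and to 64.8 to 163 CPM, 175 to 227 CPM and 178 to 239.6 CPM at 20 weeks. In each of these 5 comparisons with rats without DEN 5 of 6 were called higher. The 5 lymphocyte markers found summed to 2.45 to 4.34 CPM without DEN and 6.58 to 7.84 CPM in NT liver at 8 weeks, with all 4 tested called higher. They summed to 2.08 to 2.95 CPM, 2.83 to 5.61 CPM and 3.03 to 6.25 CPM at 14 weeks, with 1 of 3 called higher in NT liver and 2 of 4 in tumors, and to 2.23 to 3.71 CPM, 4.05 to 5.34 CPM and 3.26 to 5.08 CPM at 20 weeks, with 0 of 3 and 1 of 4 called. The 6 macrophage markers overlapped between rats with and without DEN at every time (223 to 428 CPM, 324 to 612 CPM and 295 to 398 CPM at 20 weeks), with 1, 1 and 2 of 6 called higher in NT liver at 8, 14 and 20 weeks and 1 and 2 in tumors. The 2 globins also overlapped at every time (182 to 316 CPM, 156 to 297 CPM and 157 to 272 CPM at 20 weeks). The part of these cells in the changes of the members was not tested.

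The genes most like each member were found over the 24 NT and no DEN libraries, 1 a rat, by Pearson's r of log2 CPM among 9983 genes. These r describe rats that share a treatment, and no test was made. Igf1 was closest to Hao1, a peroxisomal glycolate oxidase of hepatocytes (r = 0.976), Kynu (0.954) and Paqr9 (0.947). Ghr was closest to LOC294154 (0.978), Mreg (0.976) and A1i3 (0.969), a plasma proteinase inhibitor of rat liver. Igfals was closest to Dolk (0.960), Serpina3c (0.954) and Fah (0.953), and Igfbp4 to Fpgs (0.951), Orai3 (0.948) and Slc25a1 (0.948). Among the rising members, Igfbp2 was closest to Idh2 (0.912), Ncald (0.908) and Trpm4 (0.906), Igfbp3 to Ptn (0.841), Eef1g (0.813) and Cct7 (0.810), and Igfbp1 to Mob1a (0.750), Junb (0.722) and Lrch1 (0.720). Igf2r was closest to Atp8b1 (0.925), Slc4a4 (0.922) and Zkscan1 (0.916). Between members, Igf1 and Igfals gave r = 0.926, Igf1 and Ghr 0.801, and Igf1 and Igfbp2 -0.827. Igf2 and Igf1r were left out here, since their levels were too low.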

How the data were processed

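RNA was sequenced from 40 liver libraries of 24 rats with a stranded poly(A) library kit. The deposited values are counts: per the labels and the study's methods, the authors aligned read pairs to the rat genome build rn6 with STAR 2.7.1a and counted them per gene with HTSeq, on exons and the reverse strand, leaving out pairs that aligned to several places. The files hold 1 library each, as whole counts that are not normalised. Of each library's pairs, 32.8% to 45.4% were assigned to no gene and were left out here, which leaves 20528515 to 160622633 counted pairs. The counting error given above covers counting only, while SD and SE also include differences between rats. Reads were not marked by molecule.

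Counts were analysed in R 4.3.3 with edgeR 4.0.16 (filterByExpr, TMM, robust quasi-likelihood test, Benjamini-Hochberg adjustment over all genes tested), with genes called in every comparison at an adjusted p of 0.05 and a log2 fold change of 0.5, adapted from the cut the study set for human liver cancer genes in tumors. For NT liver at 8 and 14 weeks the study set a stricter cut (adjusted p of 0.01, log2 of 1), tried here as an alternative. Counts of the 2 nodules from 1 animal were summed, and each animal was 1 replicate. Groups came from the sample titles. Each rat is a separate animal. No libraries of a group agreed within sampling noise. Differences between effects were tested as interactions. The rat number links NT liver and tumors of 1 animal, and their deviations from the group means correlated with r = 0.39 to 0.65, so values with the rat as a block are given where they change a call. Simulated counts were used to check only some of the tests, and no rate of recovery or of false calls is given here. Alternatives were the size factors and the test of DESeq2 1.42.0, library totals, no filter, a stricter threshold, a fit of all groups, single nodules, each rat left out and rats numbered F left out. Likeness used log2 of CPM plus 0.5 for genes with a mean of at least 1 CPM.

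The 10 members, the gene lists and the tests were chosen with earlier results of these data known. Named list genes were up to 4 a list and comparison with the smallest adjusted p among those called. Insr, Irs1, Jak2, Socs2, Socs3, Cish, Afp and the genes of small counts were named outside that rule, after their values were seen. The values of 1 list gene are not reported here. Promoter sequences were copied from a RefSeq table of the assembly GRCr8, and no coordinates were moved between builds.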

Additional observations from a re-analysis of the deposited data

Results flagged for a closer look

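In 7 of the 80 sets of 4 rats (10 genes in 8 groups), 1 rat stood apart from the other 3 by more than Dixon's 95% limit, which chance alone exceeds in about 1 of 20 sets. Ghr in NT liver at 8 weeks was 403 CPM in rat H17, with 303 to 318 CPM in the others. Igf2 in tumors was 1.35 CPM in rat H23 at 14 weeks (others 0.664 to 0.779 CPM) and 7.09 CPM in rat H26 at 20 weeks (others 0.519 to 0.816 CPM). Igfals without DEN at 20 weeks was 478 CPM in rat H16, with 349 to 369 CPM in the others. Rat F06 stood apart at 14 weeks for Igfbp1 in NT liver, at 111 CPM (others 14.0 to 25.8 CPM), and for Igfbp2 in tumors, at 32.0 CPM (others 11.2 to 13.5 CPM). Igfbp4 in tumors at 20 weeks was 1083 CPM in rat H25, with 908 to 937 CPM in the others.

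With TMM, the effect of DEN on NT liver differed between times for 4 members by the interaction test, while a fit of all 8 groups called none of them. Between 8 and 14 weeks the effects differed by -0.55 on the log2 scale for Igf1, by -0.59 for Igfals and by 0.54 for Igf2r. Of all genes, 6.52% were called there. Between 14 and 20 weeks they differed by 0.59 for Ghr, beside calls for 0.703% of all genes. With library totals in place of TMM, only Igf2r among these 4 kept its call.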

How the results depend on the processing

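Of 2094 values of members under other settings, 1907 kept their direction and their side of the threshold, 64 lost a call, 28 gained one and 95 changed sign. Where a member lost a call under some setting, none of its values for that comparison changed sign. The sign changes printed below are of members not called as reported in that comparison. Depth limits Igf2 and Igf1r, which lay near 1 CPM or under it, and small changes of these were not detectable. Untreated rats with numbers starting with F were not among the samples, and the 4 such rats were all treated with DEN, so that what the letter stands for cannot be told apart from treatment in them. The causes of the changes listed here were not tested.

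With the rat as a replicate block, tumors against NT liver at 20 weeks gave 4 members and 1693 genes in place of none, and Igfbp1 at 14 weeks was 0.047 in place of -0.11. The block changed no other call of a member. DESeq2 called 902 genes and 3 members there, 35 genes in tumors against NT liver at 14 weeks, 20 genes in untreated rats between 8 and 14 weeks, 168 genes and 1 member (Igfbp2) between 8 and 20 weeks, 299 genes for the NT effect between 14 and 20 weeks and 27 for the tumor effect. The fit of all 8 groups called 1096 genes and 3 members in tumors against NT liver at 20 weeks, 1 gene in untreated rats between 8 and 14 weeks, 124 genes and 0 members for the NT effect between 8 and 14 weeks (Igf2 at -0.025), 39 genes and 0 members between 14 and 20 weeks and 16 genes for the tumor effect. Each nodule as its own value gave 1 gene in tumors against NT liver at 14 weeks, and no filter gave 2 genes in untreated rats between 8 and 14 weeks. Igfbp4 between these untreated rats was -0.0029 with DESeq2, -0.0041 with its size factors and -0.0022 with library totals.

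At the stricter threshold, the study's own for NT liver at 8 and 14 weeks (adjusted p of 0.01, log2 of 1), NT liver had 1 member and 855 genes at 8 weeks, 4 members and 1676 genes at 14 weeks and 1 member and 565 genes at 20 weeks, and tumors had 4 members and 2117 genes at 14 weeks and 1946 genes at 20 weeks. The NT effects then had 0 members and 54 genes between 8 and 14 weeks and 0 members and 19 genes between 14 and 20 weeks, the tumor effect 3 genes, and untreated rats 1 gene between 8 and 20 weeks. With library totals Igf2r was 0.033 in NT liver at 20 weeks, 0.41 and 0.18 in tumors at 14 and 20 weeks and 0.15 in tumors against NT liver at 20 weeks. In tumors against NT liver that scaling gave 0.045 and 0.048 for Igfbp1 and 0.036 and 0.057 for Igfbp2 at 14 and 20 weeks. For the NT effect between 8 and 14 weeks it gave 1 member and 1349 genes, with Ghr at 0.086, Igfbp3 at 0.15 and Igfbp4 at 0.044, and between 14 and 20 weeks 139 genes.

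With nodule 1 alone, tumors against NT liver at 20 weeks gave 1 member and 218 genes, the tumor effect 5 genes, Igfbp1 0.11 (14 weeks) and Igfbp2 0.21 (20 weeks) against NT liver, Igf2 -0.029 in tumors at 14 weeks and Igf1r 0.054 for the tumor effect. With nodule 2 alone, Igf2 was 0.026 and Igfbp2 0.23 (14 weeks) and Igf2r 0.0032 (20 weeks) against NT liver, and for the tumor effect Igf2r was 0.056 and Igfals -0.037. Without the rats numbered F, Igfbp1 was -0.079 in NT liver at 8 weeks, 1.15 for the NT effect between 14 and 20 weeks, 0.18 in tumors against NT liver at 14 weeks and 0.68 for the tumor effect, Igf2r was 0.055 in tumors at 14 weeks, and the NT effect had 1 member between 8 and 14 weeks (Igfbp3 at 0.15) and 166 genes between 14 and 20 weeks.

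With 1 rat left out at a time, NT liver at 20 weeks had 2 to 5 members called, the NT effect 1 to 3 members and 418 to 1264 genes between 8 and 14 weeks and 0 to 1 members and 31 to 335 genes between 14 and 20 weeks, tumors against NT liver at 20 weeks 0 to 2 members and 0 to 445 genes, the tumor effect 6 to 15 genes, and untreated rats 0 to 117 genes between 8 and 14 weeks and 11 to 102 between 8 and 20 weeks. The lowest and highest values of members that crossed 0 in such refits are given next, all of them uncalled as reported. For NT liver at 8 weeks, Igf1r ranged from -0.032 to 0.40 and Igfbp1 from -0.17 to 0.46. For NT liver at 20 weeks, Igf2 ranged from -0.59 to 0.12. For tumors at 14 weeks, Igf2 ranged from -0.17 to 0.40 and Igf2r from -0.25 to 0.055. For tumors at 20 weeks, Igf2 ranged from -0.78 to 1.38. For tumors against NT liver at 14 weeks, Igf2 ranged from -0.48 to 0.047, Igfbp1 from -0.22 to 0.18 and Igfbp2 from -0.15 to 0.0068. For tumors against NT liver at 20 weeks, Igf2 ranged from -0.49 to 1.78 and Igf1r from -0.51 to 0.11. For untreated rats between 8 and 14 weeks, Igf2 ranged from -0.29 to 0.23, Igfbp1 from -0.62 to 0.26, Igfbp2 from -0.34 to 0.39, Igfbp3 from -0.043 to 0.19 and Igfbp4 from -0.054 to 0.033. For untreated rats between 8 and 20 weeks, Igfbp1 ranged from -0.37 to 0.29, Igfbp3 from -0.017 to 0.31 and Ghr from -0.0018 to 0.060. For the NT effect between 8 and 14 weeks, Igf2 ranged from -0.18 to 0.33 and Igfbp3 from -0.31 to 0.077. For the NT effect between 14 and 20 weeks, Igfbp1 ranged from -0.53 to 0.97 and Igfbp3 from -0.23 to 0.13. For the tumor effect between 14 and 20 weeks, Igf2 ranged from -0.87 to 1.30, Igf1r from -0.35 to 0.19 and Igfbp1 from -0.64 to 0.61.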
